A study of Rattus norvegicus with 18 samples.

Results

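A set of 10 genes of the alveolar type 2 cell and of lung surfactant was followed in rat lungs exposed to carbon nanotubes for up to 2 years. They were *Sftpa1*, *Sftpb*, *Sftpc*, *Sftpd*, *Abca3*, *Napsa*, *Lamp3*, *Slc34a2*, *Lpcat1*, and *Etv5*, which were chosen by symbol, with earlier results of these data known, and form 10 of the 22081 genes in the deposited tables. All 10 passed the filter on low counts at every time point, with between 1297 and 360001 counts per gene and rat. The animals were male F344 rats that received instillations into the trachea every 4 weeks from 9 weeks of age. Vehicle control rats received saline with Tween 80, and the MWCNT group was given MWNT-7 at 0.5 mg/kg, the high dose, in the same vehicle. MWNT-7 is a multi-walled carbon nanotube with mostly straight fibers. Each treatment had 3 rats at Year 0.5 (week 26, age of about 35 weeks), at Year 1 (week 52, about 61 weeks), and at Year 2 (week 104, about 113 weeks), and every rat was a separate animal. The libraries were made from total RNA of tumor-free pieces of the accessory lobe, so that each value averages over all cells of the tissue. In such bulk samples, more cells of a type and more RNA per cell cannot be told apart, and the age of the rats moved together with the number of doses, so that the effects of these cannot be told apart either. The pieces were frozen and could hold focal lesions.

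Alveolar type 2 cells are the cuboidal epithelial cells of the alveolus that make, store, secrete, and recycle surfactant, and they act as progenitors of the flat type 1 cells after injury. Surfactant is a film of phospholipids, mostly saturated phosphatidylcholine, with a small share of proteins. The hydrophobic proteins SP-B and SP-C, encoded by *Sftpb* and *Sftpc*, spread the lipids at the air-liquid surface, whereas SP-A and SP-D, encoded by *Sftpa1* and *Sftpd*, are water-soluble collectins that bind microbes, particles, and lipids. The lipids are packed with SP-B and SP-C into lamellar bodies, which are secretory organelles related to lysosomes, and spent surfactant is taken up again by type 2 cells and by alveolar macrophages.

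Total counts per rat ranged from 13297643 to 21130757, and no pair of replicate libraries agreed within sampling noise. For comparisons between genes, TPM values were used, which account for the length of a gene and the size of its library. For comparisons between rats, log2 fold changes of MWCNT-treated against control rats were calculated from the counts with the quasi-likelihood test of edgeR after TMM normalization, and the false discovery rate (FDR) was adjusted over all genes tested. Genes with an FDR below 0.05 are called higher or lower here, and genes that also had an absolute log2 fold change above 1 met the criterion for differentially expressed genes (DEGs) of the study. The study applied this criterion in other software, so that its own DEGs can differ from those called here.

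Per gene length, the order of the 10 genes was led by *Sftpc*, *Sftpa1*, *Sftpb*, and *Slc34a2* in all 6 groups. In the control rats of Year 0.5, *Sftpc* stood at 20141 ± 1042 TPM (SD, n = 3), *Sftpa1* at 5577 ± 786, *Sftpb* at 4207 ± 158, and *Slc34a2* at 919 ± 23.4. *Napsa* followed at 462 ± 21.5 TPM, *Lamp3* at 379.6 ± 24.6, *Sftpd* at 314 ± 76.8, *Lpcat1* at 279 ± 17.4, *Abca3* at 176 ± 4.45, and *Etv5* at 73.9 ± 3.86. The TPM of *Lamp3* and *Sftpd* overlapped between rats, as did those of *Sftpd* and *Lpcat1*. The 4 surfactant protein genes together took 3.02% ± 0.194, 3.46% ± 0.0620, and 2.89% ± 0.188 (SD, n = 3) of the TPM of control lungs at Years 0.5, 1, and 2. In MWCNT-treated lungs their share was 5.57% ± 0.114, 5.82% ± 0.0980, and 5.23% ± 0.217, and at each time point all 3 treated rats lay above all 3 controls.

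**Figure D1:**
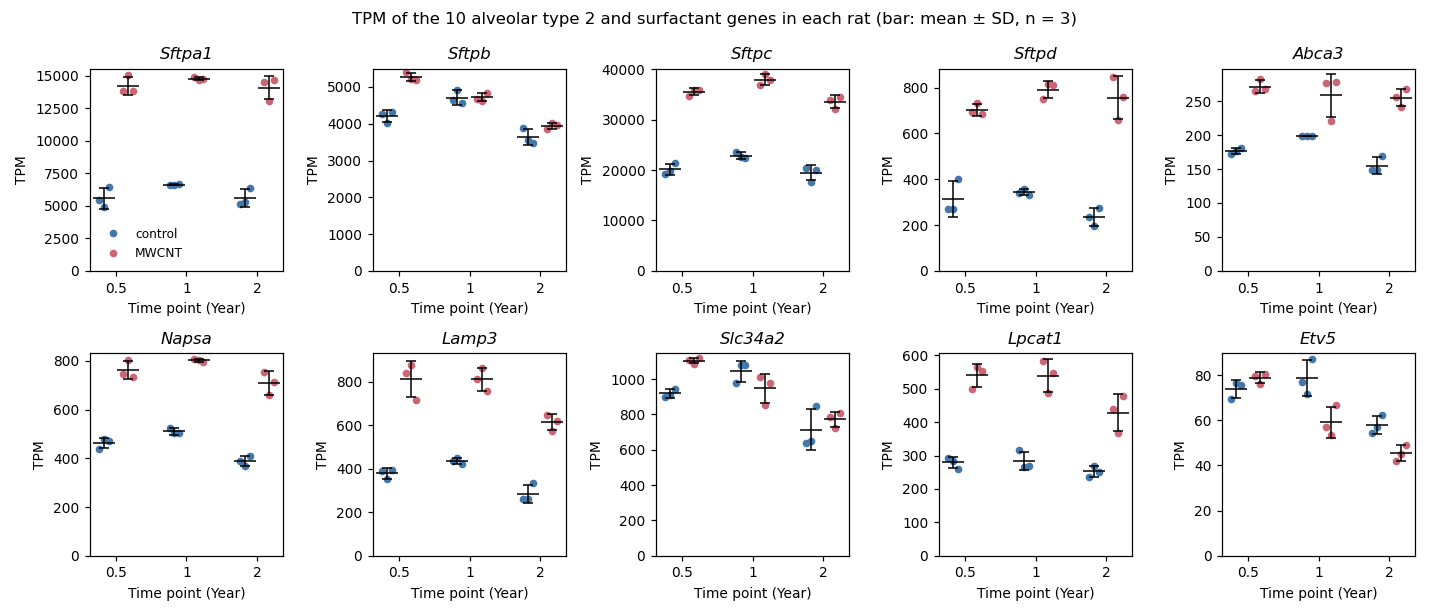
TPM (level scaled for gene length, linear axis from 0) of the 10 genes in each rat against the time point; points are rats, and bars give the mean ± SD of 3 rats. The MWCNT-treated rats lie above the control rats at all time points for *Sftpa1*, *Sftpc*, *Sftpd*, *Abca3*, *Napsa*, *Lamp3*, and *Lpcat1*, whereas *Sftpb*, *Slc34a2*, and *Etv5* overlap with the controls or fall below them at some time points.

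Most of the 10 genes were higher in MWCNT-treated lungs throughout. At Year 0.5, 10 of 10 were higher by the FDR, beside 20.2% of all genes tested that were higher and 18.6% that were lower. At Year 1, 8 of 10 were higher, beside 21.6% higher and 19.6% lower of all genes, and at Year 2, 9 of 10 were higher, beside 25.2% and 24.0%. By the DEG criterion, 4, 4, and 5 of the 10 genes were higher at Years 0.5, 1, and 2, beside 6.07%, 6.13%, and 8.17% of all genes. *Sftpa1*, *Sftpd*, and *Lamp3* met the DEG criterion at all 3 time points, *Lpcat1* at Years 0.5 and 1, and *Sftpc* and *Napsa* at Year 2. By library size alone, *Lpcat1* at Year 0.5 (0.992), *Lamp3* at Year 1 (0.999), and *Sftpc* and *Napsa* at Year 2 (0.832 and 0.912) fell below this limit on the log2 fold change. By limma on log2(TPM + 1) these 4 values were 0.949, 0.891, 0.792, and 0.865, and *Lpcat1* at Year 1 was also below it (0.928), as was *Sftpc* at Year 2 with upper-quartile scaling (0.949). The balance of calls over all genes depended on the scaling. When library size alone was used in place of TMM, the median log2 fold change of all genes moved from -0.02, 0.00, and -0.01 to -0.12, -0.13, and -0.18. The share of calls that were higher then moved from 52.1%, 52.3%, and 51.2% to 35.1%, 33.2%, and 31.7%. At the FDR alone, this shift changed calls of *Sftpb*, *Slc34a2*, and *Etv5*, whose values under both scalings are given with these genes, and left the other 7 genes higher at every time point. On the TPM scale, all treated rats lay above all controls for 9, 7, and 7 of the 10 genes, beside 17%, 15%, and 18.1% of all genes tested, and below them for *Etv5* at Years 1 and 2, beside 46.8% and 45.7% of all genes.

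**Figure D2:**
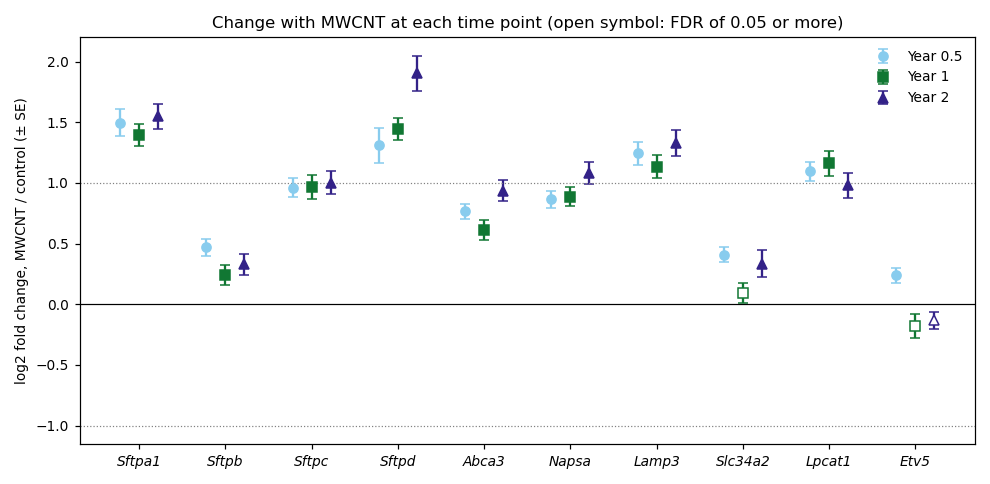
Log2 fold change of MWCNT-treated against control rats (± SE, edgeR, 3 against 3 rats) for each gene at Years 0.5, 1, and 2; filled symbols passed an FDR of 0.05, open symbols did not, and dotted lines mark an absolute log2 fold change of 1. *Sftpa1*, *Sftpd*, and *Lamp3* lie above 1 at each time point, *Sftpb* between 0.24 and 0.47, and *Etv5* on both sides of 0.

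*Sftpa1* (ENSRNOG00000011438, chromosome 16, 18716019 to 18719403, forward strand; Rnor_6.0) encodes SP-A, the most abundant of the collectins of the alveolus. Its TPM was 5425, 4878, and 6428 in the 3 control rats of Year 0.5 and 13861, 15034, and 13793 in the treated rats. At Year 1 it was 6592, 6622, and 6652 in control rats and 14889.6, 14689, and 14720.4 in treated rats, and at Year 2 it was 5149.9, 5256, and 6368 in control rats and 14476, 13071, and 14685 in treated rats. The 2 treatments did not overlap at any time point, and even the lowest treated rat, rat 2 of Year 2, lay above the highest control rat, rat 3 of Year 1. This gave a log2 fold change of 1.50 ± 0.11 (SE, FDR = 2.60e-05) at Year 0.5, 1.39 ± 0.09 (SE, FDR = 1.06e-05) for Year 1, and 1.55 ± 0.10 (SE, FDR = 4.47e-06) for Year 2. *Sftpd* (ENSRNOG00000056001, chromosome 16, 18745458 to 18766174, reverse strand) encodes SP-D, the second collectin, and lies 26.1 kb from *Sftpa1* on the opposite strand. Its TPM was 270.0, 269, and 402 in control rats and 693, 731, and 684 in treated rats of Year 0.5. In the rats of Year 1 it was 339, 357, and 333 without and 748, 814, and 812 with MWCNT, and in those of Year 2 236, 196, and 274 without and 848, 661, and 761 with MWCNT. Control rat 3 of Year 0.5 was the highest control, and every treated rat lay above it. For *Sftpd* the log2 fold change was 1.31 ± 0.15 (SE, FDR = 2.18e-04), 1.44 ± 0.09 (SE, FDR = 6.91e-06), and 1.90 ± 0.15 (SE, FDR = 1.04e-05), and the value at Year 2 corresponds to 3.74-fold.

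*Sftpc* (ENSRNOG00000011177, chromosome 15, 52211544 to 52214616, reverse strand) encodes SP-C, a short membrane-spanning lipopeptide made by type 2 cells, and was the most abundant of the 10 transcripts per length. Its TPM was 19293, 19827, and 21304 in control rats and 34671, 35923, and 35960.4 in treated rats at Year 0.5, whereas at Year 1 it was 23609, 22587, and 22423 in control rats and 36916, 39059, and 37788 in treated rats. At Year 2 the TPM was 20489, 17721, and 20041 in control rats and 33979.9, 32139, and 34569.7 in treated rats. All treated rats lay above all control rats, with log2 fold changes at the 3 time points of 0.96 ± 0.08 (SE, FDR = 4.41e-05), 0.97 ± 0.10 (SE, FDR = 1.45e-04), and 1.00 ± 0.10 (SE, FDR = 3.64e-05).

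*Sftpb* (ENSRNOG00000010761, chromosome 4, 100166863 to 100175938, forward strand) encodes SP-B, the protein without which lamellar bodies do not form properly, and it changed least of the 4 surfactant protein genes. Its TPM was 4259.6, 4029, and 4331 in control rats and 5402, 5223, and 5191 in treated rats at Year 0.5, without overlap. At Year 1 the TPM was 4646, 4930.4, and 4554 in control rats and 4681, 4629, and 4839 in treated rats, and at Year 2 it was 3884, 3550.3, and 3479.6 in control rats and 3861, 4009, and 3959 in treated rats, so that the treatments overlapped at both later time points. The log2 fold change was 0.47 ± 0.07 (SE, FDR = 8.05e-04), 0.24 ± 0.08 (SE, FDR = 0.0456), and 0.33 ± 0.09 (SE, FDR = 0.0125). The rise at Year 0.5 was called under every scaling, with 0.37 (FDR = 0.00247) by library size alone and 0.33 (FDR = 0.022) by limma on log2(TPM + 1). The calls at the later time points were not stable, since library size alone gave 0.10 (FDR = 0.303) at Year 1 and 0.16 (FDR = 0.138) at Year 2, and limma on TPM gave 0.00 (FDR = 0.98) and 0.12 (FDR = 0.335). The call at Year 1 was also lost without any one of the 3 control rats or without treated rat 1 or 3, with FDR between 0.0656 and 0.171, and the call at Year 2 without control rat 2 (FDR = 0.0541).

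The balance among the 4 surfactant protein transcripts differed between treatments, and ratios within a rat do not depend on the scaling between rats. *Sftpb* made up 13.9% ± 0.612, 13.6% ± 0.578, and 12.6% ± 0.950 (SD, n = 3) of their summed TPM in control rats at Years 0.5, 1, and 2, and 9.47% ± 0.374, 8.11% ± 0.258, and 7.54% ± 0.428 in treated rats. *Sftpa1* made up 18.4% ± 1.50, 19.2% ± 0.426, and 19.4% ± 1.92 in control rats and 25.5% ± 0.822, 25.4% ± 0.603, and 26.9% ± 0.585 in treated rats. The share of *Sftpc* lay between 63.1% and 68.9% over all 18 rats. It was 66.6% ± 1.49, 66.2% ± 0.825, and 67.2% ± 1.43 in control rats at Years 0.5, 1, and 2. In treated rats it was lower, at 63.7% ± 0.798, 65.2% ± 0.762, and 64.1% ± 0.269, with overlap at Year 1 only. *Sftpd* made up 1.03% ± 0.182, 0.993% ± 0.0370, and 0.812% ± 0.0900 in control rats and 1.26% ± 0.0280, 1.36% ± 0.0470, and 1.44% ± 0.139 in treated rats. The TPM ratio of *Sftpa1* to *Sftpb* was 1.27, 1.21, and 1.48 in control rats of Year 0.5 and 2.57, 2.88, and 2.66 in treated rats. At Year 1 the ratio was 1.42, 1.34, and 1.46 against 3.18, 3.17, and 3.04, and at Year 2 it was 1.33, 1.48, and 1.83 against 3.75, 3.26, and 3.71, without overlap at any time point. These ratios were examined after the values of the genes were seen and are given without a test.

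**Figure D3:**
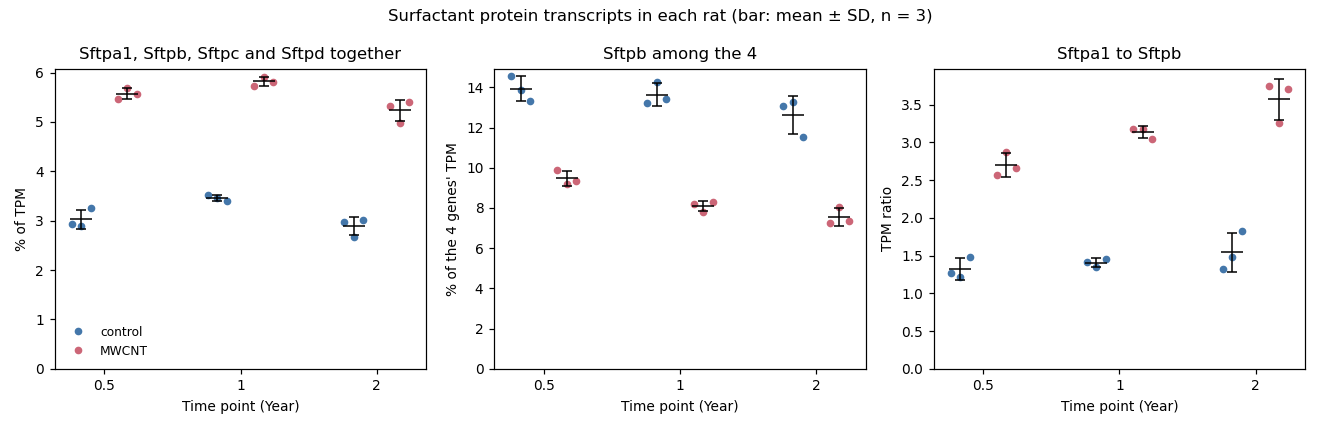
Share of all TPM taken by *Sftpa1*, *Sftpb*, *Sftpc*, and *Sftpd* together (left, %), share of *Sftpb* among these 4 genes (middle, %), and TPM ratio of *Sftpa1* to *Sftpb* (right), each against the time point; points are rats, and bars give the mean ± SD of 3 rats. Treated and control rats do not overlap in any panel, and of the values shown only the share of *Sftpb* is lower in treated rats. The share of *Sftpc*, which is not shown, was also lower in treated rats on average.

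Of the 4 surfactant protein genes, *Sftpa1* and *Sftpb* were matched to a RefSeq promoter, and they are shown here, as one gene that rose more and one that rose less, with the 250 bases before their annotated starts, from the RefSeq annotation of the rat build GRCr8, which is not the build of the counts. RefSeq promoter sequences matched 7 of the 10 genes, and those of *Sftpc*, *Sftpd*, and *Napsa* were not used here. The stretches are chr16:17042014-17042263 for *Sftpa1* and chr4:105917338-105917587 for *Sftpb*, both on the forward strand. Capitals mark the letters found for NKX2-1, the homeobox factor of the lung epithelium (CTCAAG), for NKX2 factors in general (TNAAGTG, whose letters can overlap with CTCAAG), for forkhead factors (TGTTTNC), and for a TATA box (TATAAA), each on either strand.
Sftpa1: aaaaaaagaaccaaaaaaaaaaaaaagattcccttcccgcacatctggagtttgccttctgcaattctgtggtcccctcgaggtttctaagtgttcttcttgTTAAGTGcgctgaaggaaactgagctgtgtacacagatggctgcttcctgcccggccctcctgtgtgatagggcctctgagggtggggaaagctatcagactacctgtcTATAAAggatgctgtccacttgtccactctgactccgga
Sftpb: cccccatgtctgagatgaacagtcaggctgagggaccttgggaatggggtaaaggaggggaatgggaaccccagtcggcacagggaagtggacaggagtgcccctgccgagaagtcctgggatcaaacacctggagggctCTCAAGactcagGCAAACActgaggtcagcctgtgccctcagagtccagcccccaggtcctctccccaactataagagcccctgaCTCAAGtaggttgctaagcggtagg
CTCAAG stood at 2 places before *Sftpb*, starting 110 and 25 bases before the start, and a forkhead motif in reverse complement began at 98 bases. Before *Sftpa1*, TNAAGTG began at 148 bases and TATAAA at 39 bases. Among the 33469 promoters of the same length in the table, 13.3% held CTCAAG, 9.89% TNAAGTG, 18.3% TGTTTNC, and 12.9% TATAAA. Among the other 5 matched genes, TGTTTNC was found for *Lamp3* and *Etv5*. These matches are a description of the letters, and binding was not measured.

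*Lamp3*, *Napsa*, and *Abca3*, which serve the lamellar body and the processing of its proteins, were also higher at each time point. *Lamp3* (ENSRNOG00000022792, chromosome 11, 84972132 to 85000681, forward strand) encodes DC-LAMP, a membrane protein of lamellar bodies that is also made by mature dendritic cells. Its TPM was 391, 351, and 396 in control rats and 842, 879.7, and 718 in treated rats at Year 0.5. At Year 1 it was 438, 449, and 422 in control rats and 811, 866, and 758 in treated rats, and at Year 2 it was 259, 261, and 334 in control rats and 649, 575, and 619.8 in treated rats. No treated rat overlapped with a control rat of its time point, and the log2 fold change was 1.25 ± 0.09 (SE, FDR = 2.90e-05), 1.13 ± 0.09 (SE, FDR = 3.87e-05), and 1.33 ± 0.11 (SE, FDR = 1.54e-05). *Napsa* (ENSRNOG00000019854, chromosome 1, 100577056 to 100589836, forward strand) encodes napsin A, an aspartic protease that cleaves the precursor of SP-B. Its mean TPM rose from 462 ± 21.5 to 761 ± 36.8 (SD, n = 3) at Year 0.5. The control and treated means were 511 ± 13.2 and 802 ± 6.77 at Year 1, then 389 ± 19.8 and 710.0 ± 48.7 at Year 2, without overlap. For *Napsa* the log2 fold change was 0.86 ± 0.07 (SE, FDR = 4.69e-05), 0.89 ± 0.08 (SE, FDR = 5.34e-05), and 1.08 ± 0.09 (SE, FDR = 1.66e-05). *Abca3* (ENSRNOG00000050057, chromosome 10, 13723405 to 13779963, forward strand) encodes the transporter that moves phospholipids into lamellar bodies, and its mean TPM was 176 ± 4.45, 199 ± 0.270, and 155 ± 12.1 in control rats and 271 ± 9.47, 259 ± 32.1, and 255 ± 13.03 in treated rats. At Year 1 the TPM of the treated rats was 276, 222, and 278, so that treated rat 2 was the lowest, against 198, 199, and 199 in control rats. The log2 fold change of *Abca3* was 0.77 ± 0.06 (SE, FDR = 4.96e-05), 0.61 ± 0.08 (SE, FDR = 5.88e-04), and 0.94 ± 0.08 (SE, FDR = 2.42e-05), and its estimates lay below those of *Lamp3*, a difference that was not tested.

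*Lpcat1* (ENSRNOG00000017930, chromosome 1, 32379432 to 32429917, reverse strand) encodes the acyltransferase that remodels phosphatidylcholine into its saturated surfactant form. Its mean TPM rose from 279 ± 17.4 to 540.1 ± 34.8 (SD, n = 3) at Year 0.5. The control and treated means were 283 ± 27.8 and 539.6 ± 48.6 at Year 1, then 252 ± 16.1 and 428 ± 55.1 at Year 2, without overlap of rats. The log2 fold change was 1.10 ± 0.08 (SE, FDR = 2.50e-05), 1.16 ± 0.10 (SE, FDR = 4.66e-05), and 0.98 ± 0.10 (SE, FDR = 6.73e-05).

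*Slc34a2* (ENSRNOG00000004626, chromosome 14, 60256712 to 60276794, reverse strand) encodes the sodium-phosphate cotransporter that recovers phosphate from spent surfactant, and it was called at Years 0.5 and 2 only. Its TPM was 899.8, 911, and 945 in control rats and 1106, 1088, and 1118 in treated rats at Year 0.5, without overlap. At Year 1 the TPM was 976, 1079, and 1078 in control rats and 1009.8, 856, and 977 in treated rats, and at Year 2 it was 640.5, 651, and 848 in control rats and 783, 724, and 809.8 in treated rats, with overlap at both. The log2 fold change was 0.41 ± 0.06 (SE, FDR = 0.00105) at Year 0.5, 0.09 ± 0.08 (SE, FDR = 0.377, 95% interval -0.09 to 0.28) at Year 1, and 0.33 ± 0.11 (SE, FDR = 0.0336) at Year 2. By library size alone the 3 values were 0.31 (FDR = 0.00423), -0.04 (FDR = 0.707), and 0.16 (FDR = 0.247), so that the direction at Year 1 turned and the call at Year 2 was lost. The call at Year 2 was also lost without control rat 1 or 2 or treated rat 1 or 3, with FDR between 0.0996 and 0.123. *Etv5* (ENSRNOG00000001785, chromosome 11, 82194657 to 82252139, forward strand) encodes an ETS factor that acts downstream of FGF signalling and helps to maintain the type 2 cell state. Its TPM was 69.4, 76.4, and 75.8 in control rats and 79.8, 76.3, and 80.7 in treated rats at Year 0.5. At Year 1 it was 76.8, 71.7, and 87.3 in control rats and 56.9, 53.6, and 66.7 in treated rats, and at Year 2 it was 54.5, 56.9, and 62.4 in control rats and 42.1, 45.2, and 49.1 in treated rats. On the TPM scale, the treated rats overlapped with the controls at Year 0.5 and lay below all of them at Years 1 and 2. The log2 fold change was 0.24 ± 0.06 (SE, FDR = 0.0137) at Year 0.5, and -0.18 ± 0.10 (SE, FDR = 0.17, 95% interval -0.40 to 0.04) and -0.13 ± 0.07 (SE, FDR = 0.148, 95% interval -0.29 to 0.03) at Years 1 and 2. By library size alone *Etv5* was at 0.14 (FDR = 0.108) at Year 0.5 and was lower at Years 1 and 2, with -0.31 (FDR = 0.0302) and -0.30 (FDR = 0.00847). The call at Year 0.5 was also lost without control rat 1 (FDR = 0.0572).

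The time courses within each treatment were compared in one edgeR model of all 18 rats. Between Year 0.5 and Year 1, 0 of 10 genes passed the FDR in control rats or in treated rats, where 0% and 0.101% of all genes did. At an unadjusted level of 0.05, 1 gene passed in control rats (*Sftpa1*) and 1 in treated rats (*Etv5*), DESeq2 called 0 in control rats and *Etv5* in treated rats, and limma on log2(TPM + 1) called 0 in both. Over all genes in control rats, where edgeR called 0, 21 genes passed with DESeq2. From Year 1 to Year 2, 7 of 10 genes fell in control rats, beside 7.93% of all genes that changed in either direction. *Lamp3* changed by -0.59 ± 0.11 (SE, FDR = 0.00688), *Slc34a2* by -0.53 ± 0.09 (SE, FDR = 0.00458), *Sftpd* by -0.52 ± 0.15 (SE, FDR = 0.039), and *Etv5* by -0.42 ± 0.08 (SE, FDR = 0.00893) on the log2 scale, and *Napsa*, *Sftpb*, and *Abca3* by -0.37, -0.34, and -0.33. Among all genes, 37.0% of the calls of this comparison were higher at Year 2 with TMM and 58.3% with library size alone, and the 7 genes were lower with both. Without control rat 2 of Year 1 or control rat 2 of Year 2, 3 of the 7 genes passed. *Sftpd* also lost its call without control rat 1 or 3 of Year 1 or control rat 1 of Year 2 (FDR = 0.0574, 0.0874, and 0.106), and *Abca3* without control rat 1 of Year 2 (FDR = 0.0547). In treated rats, 2 genes fell from Year 1 to Year 2, beside 5.94% of all genes, namely *Lamp3* by -0.38 ± 0.10 (SE, FDR = 0.0387) and *Etv5* by -0.35 ± 0.08 (SE, FDR = 0.0141). This count was 1 without any one rat of the treated group of Year 1 or without treated rat 3 of Year 2, 0 without treated rat 1 or 2 of Year 2, and 4 without control rat 3 of Year 2.

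From Year 0.5 to Year 2, 3 of 10 genes fell in control rats, beside 6.65% of all genes, with -0.41 ± 0.11 (SE, FDR = 0.0294) for *Lamp3*, -0.36 ± 0.09 (SE, FDR = 0.0212) for *Slc34a2*, and -0.35 ± 0.08 (SE, FDR = 0.0183) for *Etv5*. This count dropped to 1 without control rat 1 of Year 0.5 or of Year 2, and to 0 without control rat 3 of Year 0.5 or control rat 2 of Year 2. In treated rats, 3 genes fell over the same span, beside 13.5% of all genes, namely *Etv5* by -0.71 ± 0.08 (SE, FDR = 4.02e-05), *Slc34a2* by -0.43 ± 0.09 (SE, FDR = 0.00298), and *Sftpb* by -0.33 ± 0.07 (SE, FDR = 0.004). *Sftpa1* and *Sftpc* were not called in the treated rats, with changes to Year 2 of 0.07 (95% interval -0.14 to 0.28) and 0.004 (95% interval -0.17 to 0.18).

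Whether the response to MWCNT differed between time points was tested by the interaction of treatment and time in the same model. The count of genes past the FDR was 0 of 10 for Year 1 against Year 0.5, for Year 2 against Year 1, and for Year 2 against Year 0.5, where 0%, 0.478%, and 1.31% of all genes passed with edgeR. At an unadjusted level of 0.05, 3 genes passed in each of the 3 comparisons, and DESeq2 called 0, 1, and 0 genes, the 1 being *Abca3* for Year 2 against Year 1, and limma on log2(TPM + 1) called 0 in each. Without control rat 3 of Year 2, edgeR called 1 gene, *Slc34a2*, for Year 2 against Year 1. Over all genes, where edgeR called 0 for Year 1 against Year 0.5, 6 genes passed with DESeq2. The largest estimate was that of *Sftpd*, whose log2 fold change was higher at Year 2 than at Year 0.5 by 0.60 (95% interval 0.17 to 1.03, FDR = 0.18). The estimate of *Etv5* was -0.43 at Year 1 against Year 0.5 (95% interval -0.66 to -0.19, FDR = 0.545), and that of *Slc34a2* was -0.32 (95% interval -0.58 to -0.07, FDR = 0.545).

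Other genes of the pathway were examined in lists drawn up by known role. Earlier results of these data were known when the lists were made, so that their counts describe the lists and do not test them. The median of each list is given beside the median log2 fold change of all genes tested, which was -0.02, 0.00, and -0.01 at the 3 time points. The counts of each list stand beside the shares of all genes given above, of 20.2% to 25.2% higher and 18.6% to 24.0% lower. Of 8 tested genes for surfactant processing and secretion, 4, 5, and 4 were higher and 2, 1, and 1 lower at Years 0.5, 1, and 2, with medians of 0.31, 0.26, and 0.39. By library size alone, 4, 3, and 4 were higher and 2, 1, and 2 lower. *Ctsh*, a cysteine protease that processes SP-B and SP-C and is also made by macrophages, rose at Year 2 from 624 ± 51.3 to 2115 ± 317 TPM, a log2 fold change of 1.98 ± 0.13 (SE, FDR = 4.45e-06). *P2ry2*, the nucleotide receptor that triggers lamellar body secretion, rose by 1.75 ± 0.15 (SE, FDR = 4.76e-05) at Year 1, and *Adora2b*, an adenosine receptor that raises cyclic AMP, by 2.07 ± 0.12 (SE, FDR = 2.75e-06) at Year 2. *Adgrf5*, a receptor that restrains the surfactant pool and is also expressed by endothelial cells, was lower at all time points, with a log2 fold change of -1.05 ± 0.11 (SE, FDR = 6.55e-05) at Year 2. *Pgc*, a further type 2 marker of this list, was near 0, with at most 0.31 TPM in any rat, and was not tested.

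Of 20 tested genes for the synthesis of surfactant lipids, 12, 11, and 14 were higher and 1, 1, and 2 lower, with medians of 0.41, 0.31, and 0.47. By library size alone, 11, 9, and 11 were higher and 2, 1, and 2 lower, and limma on log2(TPM + 1) called 4 higher at Year 1. *Fasn*, the fatty acid synthase, rose at Year 0.5 from 146 ± 19.1 to 362 ± 55.3 TPM, with a log2 fold change of 1.46 ± 0.13 (SE, FDR = 6.86e-05), and *Fabp5*, a fatty acid binding protein that is also made by macrophages, rose by 2.22 ± 0.08 (SE, FDR = 2.37e-07) at Year 2. *Pcyt1a*, the rate-limiting enzyme of phosphatidylcholine synthesis, rose by 0.36 ± 0.07 (SE, FDR = 0.00242) at Year 0.5 and 0.59 ± 0.07 (SE, FDR = 1.05e-04) at Year 2. These estimates lay below those of *Lpcat1*, a difference that was not tested. At Year 1 the TPM of *Pcyt1a* overlapped between treatments, with 48.7, 55.4, and 54.1 in control rats and 50.5, 52.8, and 56.4 in treated rats. *Scd*, the stearoyl-CoA desaturase that makes unsaturated fatty acids, was lower at Year 2, with -1.16 ± 0.14 (SE, FDR = 1.43e-04). *Prdx6*, whose phospholipase activity takes part in the turnover of surfactant lipids, was lower at all time points, from 947 ± 32.2 to 469 ± 20.7 TPM at Year 2. *Elovl6* was listed at 0 in most rats and was not tested.

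Of 9 transcription factors of the alveolar epithelium, 4, 3, and 3 were higher and 1, 2, and 3 lower, with medians of 0.00, -0.18, and -0.10. The list is small, and nothing is read from these counts about it. This balance depended on the scaling, since by library size alone 3, 3, and 3 were higher and 4, 5, and 4 lower. *Nkx2-1*, a known activator of surfactant genes, rose by 0.49 ± 0.06 (SE, FDR = 4.24e-04), 0.56 ± 0.10 (SE, FDR = 0.00245), and 0.47 ± 0.06 (SE, FDR = 3.39e-04). *Cebpa*, a factor of type 2 cell maturation that is also active in myeloid cells, rose by 1.22 ± 0.08 (SE, FDR = 4.82e-06) at Year 2, and *Tfcp2l1*, a grainyhead family factor, by 1.47 ± 0.13 (SE, FDR = 2.54e-05). *Gata6* was lower at Years 0.5 and 2, with -0.61 ± 0.08 (SE, FDR = 2.13e-04) at Year 2, and *Klf5* at Years 1 and 2. Of 10 genes of FGF signalling, in which *Etv5* acts as a target, 5, 5, and 6 were lower and 1, *Spred1*, was higher at Year 2, with medians of -0.46, -0.31, and -0.41. By library size alone 7, 6, and 9 were lower, and *Spred1* was not called. *Fgf10*, the ligand made by lung fibroblasts, changed by -0.82 ± 0.16 (SE, FDR = 0.00399), -0.80 ± 0.14 (SE, FDR = 0.00207), and -0.47 ± 0.14 (SE, FDR = 0.0196), and *Spry1*, a feedback inhibitor induced by FGF, by -0.64 ± 0.13 (SE, FDR = 0.00466), -0.60 ± 0.10 (SE, FDR = 0.00196), and -0.70 ± 0.08 (SE, FDR = 1.23e-04). With TMM, *Fgfr2*, the receptor on alveolar epithelium, was not called at any time point, with 0.05 ± 0.08 (SE, FDR = 0.656), 0.16 ± 0.09 (SE, FDR = 0.207), and -0.10 ± 0.09 (SE, FDR = 0.353). By library size alone, *Fgfr2* was among the 9 genes called lower at Year 2.

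Of 14 tested further markers of type 2 cells, 10, 10, and 10 were higher and 3, 2, and 2 lower, with medians of 0.85, 0.62, and 0.92. By library size alone, 10, 10, and 8 were higher and 3, 2, and 3 lower, and limma on log2(TPM + 1) gave the same counts. *Muc1*, a membrane mucin, rose by 2.11 ± 0.14 (SE, FDR = 4.12e-06) at Year 2, and *Chi3l1*, a chitinase-like protein also made by macrophages, by 2.32 ± 0.11 (SE, FDR = 2.26e-06) at Year 1. *Lyz2*, the lysozyme shared by rodent type 2 cells and macrophages, rose at Year 0.5 from 24942 ± 1521 to 55904 ± 2403 TPM. *Acoxl*, an acyl-CoA oxidase-like gene, moved in the opposite direction, from 16.8 ± 1.09 to 3.51 ± 1.33 TPM at Year 0.5 and from 18.96 ± 1.55 to 0.733 ± 0.560 TPM at Year 2, with a log2 fold change of -4.46 ± 0.37 (SE, FDR = 1.71e-05) at Year 2. *Mlc1* was also lower at all time points, and with TMM *Wif1* was called lower at Year 0.5 only. On the TPM scale, all treated rats lay below all controls for *Wif1* at Years 1 and 2 too, beside 46.8% and 45.7% of all genes. The paper reported *Wif1* as lower at every time point by quantitative PCR, with more rats per group. Of 12 tested genes of surfactant clearance by macrophages, 11, 10, and 11 were higher, with medians of 1.19, 1.15, and 1.66. These included both chains of the GM-CSF receptor, which alveolar macrophages need to degrade surfactant, with 1.61 ± 0.13 (SE, FDR = 3.73e-05) for *Csf2ra* and 1.56 ± 0.13 (SE, FDR = 5.71e-05) for *Csf2rb* at Year 0.5. *Msr1*, a scavenger receptor, rose by 2.45 ± 0.13 (SE, FDR = 1.70e-06) and *Lipa*, the lysosomal acid lipase, by 2.10 ± 0.08 (SE, FDR = 2.98e-07) at Year 2. With TMM, *Csf2*, the ligand, was not called, with 0.16 ± 0.34 (SE, FDR = 0.737), 0.82 ± 0.29 (SE, FDR = 0.0503), and -0.84 ± 0.34 (SE, FDR = 0.0656). By library size alone and by limma on log2(TPM + 1), *Csf2* was called lower at Year 2. *Marco*, a scavenger receptor of alveolar macrophages, was at 0 to 0.58 TPM in the control rats and at 2.01 to 10.02 TPM in the treated rats.

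Markers of some other cells of the tissue moved together with the treatment. Over the 9 control and 9 MWCNT-treated rats, the summed levels for lung epithelia, fibroblasts, and heart muscle overlapped between treatments. Within Year 1, fibroblast sums did not overlap, with 1195 to 1372 TPM in control and 921 to 1067 TPM in treated rats. Within Year 0.5, heart muscle sums did not overlap, with 179 to 634 TPM in control and 90.7 to 116 TPM in treated rats. The part of these cells in the changes of the 10 genes was not tested. The summed level of the macrophage markers was 587 to 809 TPM in the 9 control rats and 3199 to 6363 TPM in the 9 MWCNT-treated rats, and all 11 tested markers were higher at each time point. Among them were *Gpnmb* with 4.13 ± 0.16 (SE, FDR = 3.05e-07) and *Cd68* with 3.03 ± 0.11 (SE, FDR = 2.63e-07) at Year 2. The largest log2 fold change of this list was that of *Marco*, which was near 0 TPM in control rats. It was 6.22 at Year 0.5, and 1.75 in the lowest alternative. *Marco*, *Mrc1*, and *Msr1* stand both in this list and in that of surfactant clearance. Markers of alveolar type 1 cells summed to 7169 to 8455 TPM in the 9 control rats and 3340.0 to 5449 TPM in the 9 MWCNT-treated rats, and 9, 8, and 10 of 10 were lower, among them *Cav1* with -1.77 ± 0.12 (SE, FDR = 4.55e-06), *Rtkn2* with -1.73 ± 0.10 (SE, FDR = 2.60e-06), and *Akap5* with -1.40 ± 0.13 (SE, FDR = 2.88e-05) at Year 2. Markers shared by lung epithelia summed to 1269.6 to 1568 TPM in the 9 control rats and 1155 to 1524 TPM in the 9 MWCNT-treated rats, with ranges that overlapped, and 5, 6, and 5 of 10 were higher, against 2, 1, and 4 by library size alone. Of these, *Cldn4*, a tight junction protein, rose by 2.37 ± 0.20 (SE, FDR = 1.68e-05) at Year 2. Endothelial markers summed to 2707 to 3433 TPM in the 9 control rats and 904 to 1829.7 TPM in the 9 MWCNT-treated rats, and 8, 7, and 7 of 8 were lower, with -1.81 ± 0.12 (SE, FDR = 4.17e-06) for *Tek*, -1.58 ± 0.23 (SE, FDR = 4.63e-04) for *Egfl7*, and -1.58 ± 0.16 (SE, FDR = 4.63e-05) for *Kdr* at Year 2. Markers of airway secretory cells summed to 18215 to 33029.8 TPM in the 9 control rats and 10676 to 15669 TPM in the 9 MWCNT-treated rats, with 3, 3, and 2 of 6 lower. Most of this sum was *Scgb1a1*, with 17673 to 32241 TPM in control rats and 10255 to 15208 TPM in treated rats. The sum therefore follows this 1 transcript, and the list medians were -1.11, -0.7, and -0.02. In that list, *Cyp2f4* was lower at Year 1, with -1.54 ± 0.27 (SE, FDR = 0.00228), *Scgb3a1* was lower at Year 0.5, with -1.99 ± 0.59 (SE, FDR = 0.0259), and *Bpifa1* was higher, with 4.11 ± 0.77 (SE, FDR = 0.00197) at Year 2. The call of *Scgb3a1* was lost in the model of all 18 rats (FDR = 0.068) and without treated rat 2 or 3 (FDR = 0.0838 and 0.0807). Its TPM was 58.6, 35.3, and 220.2 in the control rats, and without control rat 3 the log2 fold change was -0.85. For *Bpifa1* the control rats of Year 2 were at 0.900, 2.19, and 36.5 TPM, and without control rat 3 the log2 fold change was 7.13. Fibroblast markers summed to 933 to 1745 TPM in the 9 control rats and 902 to 1436 TPM in the 9 MWCNT-treated rats, with 2, 1, and 2 of 7 higher and 4, 4, and 3 lower, beside 20.2% to 25.2% higher and 18.6% to 24.0% lower of all genes. Among them were *Dcn* with -1.31 ± 0.26 (SE, FDR = 0.00272) and *Col1a1* with 1.22 ± 0.10 (SE, FDR = 1.51e-05) at Year 2. Heart muscle markers, which can enter the lung with the pulmonary vein, summed to 72.9 to 654 TPM in the 9 control rats and 15.6 to 202 TPM in the 9 MWCNT-treated rats, and all 5 were lower at Year 0.5 and 1 at Year 2, with -1.90 ± 0.44 (SE, FDR = 0.00928) for *Tnni3* and -1.75 ± 0.43 (SE, FDR = 0.0116) for *Myl7* at Year 0.5 and -1.99 ± 0.50 (SE, FDR = 0.00924) for *Actc1* at Year 2. Control rat 3 of Year 0.5 was the highest, with *Tnni3* at 45.3, 28.8, and 111 TPM and *Myl7* at 33.2, 22.4, and 84.4 TPM in the 3 control rats, and without it the log2 fold changes were -1.18 and -1.01. Both calls were lost in the model of all 18 rats (FDR = 0.0795 and 0.192). Without control rat 3 of Year 2, the log2 fold change of *Actc1* was -1.19. Of the genes named from the lists, *Adgrf5*, *Pcyt1a*, *Prdx6*, *Nkx2-1*, *Gata6*, *Klf5*, *Spred1*, *Fgf10*, *Spry1*, *Fgfr2*, *Lyz2*, *Mlc1*, *Wif1*, *Csf2ra*, *Csf2rb*, and *Csf2* were chosen for their roles after their values were seen. *Scgb1a1* was named for its level, also after its values were seen.

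**Figure D4:**
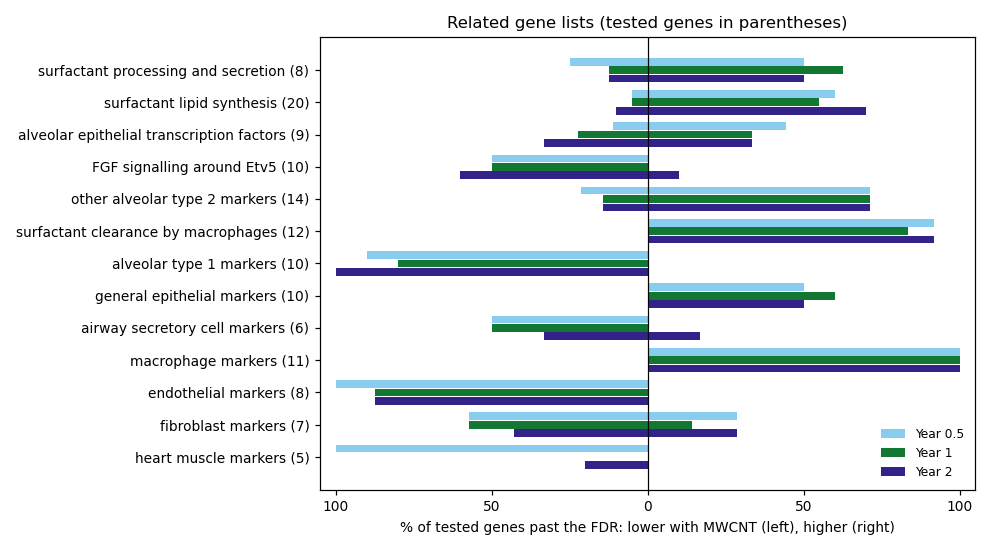
Share of the tested genes of each list (%) that were lower (left) or higher (right) in MWCNT-treated rats at an FDR below 0.05, at Years 0.5, 1, and 2; the number of tested genes stands in parentheses. All tested macrophage markers are higher at each time point, most alveolar type 1 and endothelial markers are lower, and among surfactant processing and lipid genes more are higher than lower.

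Genes with the most similar pattern were found for the 4 surfactant protein genes among the 14843 genes tested over all 18 rats, by the Euclidean distance of the 6 group means of log2 CPM, each centred on its own mean. The nearest to *Sftpa1* were *Lyc2* (0.14), *Bub1b* (0.20), and *Tuba1c* (0.21), in log2 units. Of these, *Bub1b* was at a low level, with group means of 1.23 to 3.92 TPM. *Lyc2*, a rat lysozyme, had 10.1, 11.3, and 10.8 TPM in control rats and 25.7, 26.6, and 24.1 TPM in treated rats, and reads of near-identical lysozyme genes may be divided among them. The nearest to *Sftpb* were *Dennd1b* (0.09), *Alpl* (0.10), and *Fem1b* (0.10), of which *Alpl* is an alkaline phosphatase. The nearest to *Sftpc* were *Pdhx* (0.12), *Napsa* (0.15), and *Naaa* (0.15), so that 1 of the 10 genes, *Napsa*, stood among its 3 nearest. The nearest to *Sftpd* were *AABR07065693.3* (0.18), *Qsox1* (0.20), and *Tlcd4* (0.20). These distances cover 6 group means and describe likeness of pattern only.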

How the data were processed

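RNA was measured by RNA-seq (NEBNext Ultra II libraries; strandedness not given in the sources used here, so antisense overlaps cannot be told apart). The authors mapped and counted reads in CLC Genomics Workbench, and the submitters' processing notes give the build Rnor_6.0 (rn6); the annotation release and the treatment of multi-mapped reads were not given in the sources used here. Of the deposited columns, the authors' total counts per gene and rat (whole numbers, not normalized; 13297643 to 21130757 per rat) were used for tests, and the deposited TPM values for levels. RPKM, TMM-adjusted CPM, and the columns of the authors' own comparisons (fold changes and p-values) were not used. All per-sample columns were matched to rats by their labels.

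Genes were filtered with filterByExpr (minimum count 10, minimum total 15), normalized by TMM, and fitted in edgeR 4.0.16 (R 4.3.3), whose quasi-likelihood F-test gave p-values with Benjamini-Hochberg adjustment over all genes. Each year was fitted on its 6 rats, and time and interaction contrasts on all 18. Calls were set at an FDR below 0.05, and DEGs also needed an absolute log2 fold change above 1. The procedure was tested on simulated data. Alternatives were library size alone, upper quartile, no filter, DESeq2 1.42.0, limma 3.58.1 on log2(TPM + 1) and log2(TPM + 0.1), a replicate block, 1 model of 18 rats, and leaving out each rat. The members and gene lists were chosen with earlier results of these data known. Named were the 10 members, up to 3 genes per list with the largest change among DEGs, the 3 nearest genes of each surfactant protein gene, and markers near 0. Promoter sequences came from RefSeq (GRCr8).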

Additional observations from a re-analysis of the deposited data

How the results depend on the processing

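The log2 fold changes of single genes taken here covered the 10 genes at each time point, their called changes over time, and the list genes with the largest changes among DEGs. Changes over time and list genes entered only where they were called, so that the share called follows in part from this choice. Of these 76 log2 fold changes, 73 were called, and 57 of these kept the call and the direction in every alternative, while 16 lost the call in at least 1. Of the 3 that were not called, 2, those of *Etv5* at Years 1 and 2, were called lower in at least 1 alternative, and 1 turned direction. This was *Slc34a2* at Year 1, with -0.04 by library size alone and -0.143 by limma with a pseudocount of 1 and -0.143 with 0.1. The count of the 10 genes past the DEG criterion was 2 at Year 1 by limma with either pseudocount, and 3 at Year 2 by library size alone and by limma with either pseudocount. With DESeq2, the counts past the FDR were 1 for Year 1 against Year 0.5 in treated rats, 5 for Year 2 against Year 1 in treated rats, 1 for the interaction of Year 2 against Year 1, and 6 for Year 2 against Year 0.5 in control rats, and limma gave 5 for Year 2 against Year 0.5 in treated rats. The cause of these shifts was not tested. Leaving out 1 rat at a time gave 9 to 10, 7 to 8, and 7 to 9 genes past the FDR and 4 to 4, 4 to 5, and 4 to 6 past the DEG criterion at Years 0.5, 1, and 2. It gave 3 to 7 genes for Year 2 against Year 1 in control rats, 0 to 4 in treated rats, 0 to 1 for the interaction, and 0 to 4 for Year 2 against Year 0.5 in control rats. The rats are separate animals and share only a replicate number: deviations of same-numbered rats correlated at -0.147 to 0.107 (mean 0.007, 9 pairs), against -0.003 over 18 differently numbered pairs, and 6 of 18 rats correlated best with their own number. With the replicate block, the count for Year 2 against Year 1 in treated rats was 1, and the call of *Sftpb* at Year 1 was lost (0.24, FDR = 0.115). The lowest count of any of the 10 genes in a rat was 1297.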
